A study of Arabidopsis thaliana with 115 samples.

Results

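The Aux/IAA genes and the auxin-induced GH3 genes of *Arabidopsis* were followed across 33 TFs in root protoplasts. The set holds 33 gene identifiers of the 33016 in the count files. Its members are named by gene family, a choice made with earlier results of these data known: the 29 Aux/IAA genes and GH3.1, GH3.3, GH3.5 and GH3.6. All 33 identifiers were found in the files, and 31 passed the filter on low counts. IAA6 and IAA31 did not, with at most 8 and 4 counts in any library.

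The libraries came from the TARGET assay, in which a plasmid carries a TF fused to the glucocorticoid receptor (GR), so that dexamethasone (DEX) moves the TF into the nucleus. The TF groups were root protoplasts of 10-day-old Col-0 seedlings transfected with such a plasmid, against protoplasts of the same kind transfected with the empty vector (EV), which carries GR alone. TF and EV cells alike received 60 mM N (20 mM KNO3 and 20 mM NH4NO3), 35 µM cycloheximide (CHX), which blocks translation, and 10 µM DEX. Transfected cells were then sorted by FACS. The labels give 6 batches, each with its own 3 EV libraries. Batch 1 held ERF056, GATA17 and HSFB2A. Batch 2 held TGA1. In batch 3 were TGA4, HYH, HHO3, HB6, GATA17L, CRF4, COL5 and BEE2. In batch 4 were bZIP3, ZFP4, NAC4, LBD38, HHO2, ERF060, CDF1, C2H2 and ASR3. In batch 5 were WRKY18, TCP23, NAP, MYB61, HAT22 and FBH4. In batch 6 were WRKY54, VRN1, RAV1, LBD37, ERF5 and DIV1. Of all groups, HAT22 and FBH4 had 2 libraries and the rest 3, so that 97 TF libraries and 18 EV libraries were compared. Per the study's methods, replicates were wells filled from 1 transfection, and cells carrying a TF in a red vector shared wells with cells carrying another TF in a green vector before they were sorted apart. The labels do not give the colour, so vector colour was not tested, and the p-values measure the spread between wells. In the series' listing, the libraries of some TFs are interleaved with the EV libraries of their batch and those of other TFs stand apart from them. In batches 3 to 6, which hold TFs of both kinds, 15 TFs are listed apart (COL5, GATA17L, HB6, HHO3, C2H2, CDF1, HHO2, ZFP4, bZIP3, FBH4, MYB61, TCP23, DIV1, LBD37 and WRKY54) and 14 are interleaved. What this order stands for is not in the labels.

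Auxin (indole-3-acetic acid) brings the TIR1/AFB receptors and the Aux/IAA proteins together, and the Aux/IAA proteins are then degraded. Aux/IAA proteins bind the ARF transcription factors and recruit the co-repressor TOPLESS (TPL), so their loss frees ARFs to activate genes. Many Aux/IAA genes are themselves ARF targets and rise quickly with auxin, which closes a feedback loop. GH3 enzymes link auxin to amino acids, and their genes are also rapidly induced by auxin. In the root, these genes are known for their part in lateral root formation, root hair growth and gravitropism. Because CHX blocks translation, a change of these mRNAs that arises after CHX does not need new protein. Per the methods, transfected cells were incubated overnight and given N before CHX, which came shortly before DEX. All libraries compared here received DEX, so a change that arose before CHX cannot be told apart from a later one.

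The stretch by which auxin receptors recognise an Aux/IAA protein, the degron, is shown for 6 members whose responses are set apart later, since it is what makes a canonical Aux/IAA protein unstable. Each line gives coding sequence 5′ to 3′ read from the RefSeq TAIR10.1 assembly and annotation, with the codons of the core GWPPV in capitals.
IAA7: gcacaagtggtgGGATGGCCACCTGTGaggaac
IAA14: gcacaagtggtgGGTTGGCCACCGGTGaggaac
IAA16: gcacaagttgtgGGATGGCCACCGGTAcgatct
IAA17: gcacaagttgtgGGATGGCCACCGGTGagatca
IAA2: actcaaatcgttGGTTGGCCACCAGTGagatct
IAA28: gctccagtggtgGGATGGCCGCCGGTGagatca

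A core of GWPPV or GWPPI was encoded by 22 of the 29 Aux/IAA genes. IAA10 and IAA31 lacked this full core but encoded WPP, and IAA20, IAA30, IAA32, IAA33 and IAA34 encoded no WPP. Other parts of the core were not searched for on their own. The LxLxL motif through which TPL is recruited was encoded by every Aux/IAA gene except IAA33.

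Promoters are shown for GH3.3, which was called for 16 TFs, for IAA7, which was only induced, and for IAA19, a classical auxin-inducible gene. Each runs from 250 bases before to 50 after the annotated start, on the strand of the gene. Capitals mark TGTCTC, the auxin response element that ARFs bind, and in GH3.3 also TGACG, the core of TGA factor sites. The windows are chr2:9866513-9866812 on the minus strand for GH3.3, chr3:8194356-8194655 on the plus strand for IAA7 and chr3:5263751-5264050 on the plus strand for IAA19, all in TAIR10.1.
GH3.3: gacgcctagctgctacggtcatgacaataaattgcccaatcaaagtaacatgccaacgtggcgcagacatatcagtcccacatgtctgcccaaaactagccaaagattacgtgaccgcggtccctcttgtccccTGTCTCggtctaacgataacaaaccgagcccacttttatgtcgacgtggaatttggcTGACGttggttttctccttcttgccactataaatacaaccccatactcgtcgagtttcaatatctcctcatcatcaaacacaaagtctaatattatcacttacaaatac
IAA7: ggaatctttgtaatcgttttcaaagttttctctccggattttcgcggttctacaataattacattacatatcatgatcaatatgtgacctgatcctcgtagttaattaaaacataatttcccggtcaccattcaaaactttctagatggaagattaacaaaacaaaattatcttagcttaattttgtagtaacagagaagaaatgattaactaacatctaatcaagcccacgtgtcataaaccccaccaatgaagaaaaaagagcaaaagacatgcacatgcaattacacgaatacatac
IAA19: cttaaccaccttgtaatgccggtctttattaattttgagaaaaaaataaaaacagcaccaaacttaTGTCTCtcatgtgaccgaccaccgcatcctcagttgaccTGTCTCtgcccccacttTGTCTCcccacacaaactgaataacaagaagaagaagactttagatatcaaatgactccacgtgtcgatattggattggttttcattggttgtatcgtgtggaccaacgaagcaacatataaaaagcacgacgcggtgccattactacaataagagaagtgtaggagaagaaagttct

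In these windows, read on both strands, TGTCTC occurred in 15 of the 33 members (45.5%) and in 14.2% of 27443 gene promoters. TGTCGG, a second ARF-bound form, occurred in 6 members (18.2%) and in 5.12% of all promoters. TGACG occurred in 4 members (12.1%) and in 23.1% of all promoters, and GGNCCC, the core of TCP factor sites, in 5 members (15.2%) and 8.68% of all promoters. Over 1000 bases before the start, TGTCTC was present in 60.6% of members and in 39.6% of all genes. In GH3.3, TGTCTC began at -116 and TGACG at -59 from the start. IAA7 held none of these motifs in its window. A match describes the letters and is not a measured binding site.

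Total counts of a library ranged between 1542961 and 45372240. The 40 libraries of batches 5 and 6 were the shallow ones, with 1542961 to 9697384 counts, and 18.3% to 49.5% of their counts fell on 10 genes, against 4.69% to 8.14% in batches 1 to 4. The transfected TF's own gene was highest in its own libraries for 33 of 33 TFs. Replicates correlated with r of at least 0.905 (log2 scale, across genes, which are not independent replicates). The leaf mesophyll markers, which roots should lack, summed to at most 2.18 CPM (counts per gene scaled to a common library size) in TF libraries and 1.92 CPM in EV libraries. The cortex marker CO2 was near 0, with at most 0.36 CPM in TF libraries and 0 in EV libraries. Other cell type markers differed in how often they were called, where the backgrounds over all genes were 4.59% induced and 4.99% repressed. The 3 endodermis markers gave 15 induced and 24 repressed calls in 99 comparisons (15.2% and 24.2%), and the 2 phloem markers 3 and 14 in 66 (4.55% and 21.2%). Within the endodermis, CASP1 gave 11 and 11, MYB36 3 and 11, and SCR 1 and 2. Stele markers gave 4 and 5 in 66 (6.06% and 7.58%). Non-hair epidermis and xylem markers each gave 0 and 2 in 66 (3.03% repressed), and the quiescent centre marker gave 2 and 0 in 33. Endodermis markers summed to 12.9 to 110.4 CPM in TF libraries (median 56.3), against 19.7 to 116.5 CPM in EV libraries (median 63.3), and phloem markers to 8.27 to 310.9 CPM (median 84.4), against 23.9 to 144.6 CPM (median 71.0). These sums pool all batches, which hold unlike numbers of TF libraries, so their medians do not compare TF with EV within a batch. The part of these cell types in the results was not tested. In bulk cells, fewer cells of a type and less RNA per cell cannot be told apart.

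Of the 1023 comparisons of a member with a TF, 169 passed edgeR's quasi-likelihood test at an adjusted p of 0.05 over all genes of that TF, or 16.5%. A member was induced in 60 of these (5.87% of comparisons, where the background over all genes tested was 4.59%) and repressed in 109 (10.7%, where the background was 4.99%). Repression was thus called more often among these genes than among all genes, and induction at a share near the background. Without replicate 2 of every group, 74 calls were made, 22 induced and 52 repressed. In 157 of the 169 calls no TF library lay within the range of the EV libraries. The same share over all called genes was not computed, so this is not a trait shown for the members. Nor was it computed for the counts of libraries above or below EV given later for single genes. The median size of a called change was 0.81 on the log2 scale, and 63 calls reached a log2 of 1. The median log2 of TF over EV was -0.05 over all member comparisons, and the medians over all genes lay between -0.08 and 0.03 for the 33 TFs. Of the 31 members tested, 25 were called for at least 1 TF. The share of all genes called for at least 1 TF was not computed, so this count shows no trait of the members. Batches 1 to 4 gave 30 induced and 72 repressed calls for 21 TFs, and the shallow batches 5 and 6 gave 30 induced and 37 repressed calls for 12 TFs.

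Induction of members went with the place of a TF in the listing. In batches 3 to 6 the 15 TFs listed apart from EV gave 42 induced calls in 465 comparisons (9.03%), and the 14 TFs interleaved with EV gave 9 in 434 (2.07%). The split was the same way in each of the 4 batches, with 14 and 1 induced calls in batch 3, 6 and 0 in batch 4, 15 and 5 in batch 5, and 7 and 3 in batch 6. Pooled repression did not divide so, with 43 repressed calls (9.25%) for TFs listed apart and 41 (9.45%) for interleaved TFs. By batch, however, repression went opposite ways, at 18.06% and 10.48% of comparisons in batch 4 but 4.30% and 15.05% in batch 5. The repressed shares were 3.23% and 1.61% in batch 3, and 7.53% and 12.9% in batch 6. Over all genes, a TF listed apart induced 1.03% (HHO3) to 9.89% (DIV1), and an interleaved TF of these batches 0.30% (BEE2) to 12.2% (RAV1). All-gene repressed shares ran from 1.9% (HHO3) to 15.4% (DIV1) and from 0.035% (CRF4) to 12.2% (RAV1). In batch 4 all-gene induced shares were 3.82% (ZFP4) to 6.58% (C2H2) for TFs listed apart and 1.74% (ASR3) to 3.37% (NAC4) for interleaved TFs. The ranges of the 2 kinds overlapped in batches 3, 5 and 6. Shares of all genes pooled over each kind of TF were not computed. How far the division of the members goes beyond that of all genes was therefore not tested. The TFs and whatever sets the listing cannot be told apart. This bears on every call, induced or repressed, of a TF listed apart. Among them are all calls of TCP23, MYB61, HHO2, CDF1 and HB6. The split was noticed after the values were seen and was given no test.

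**Figure D1:**
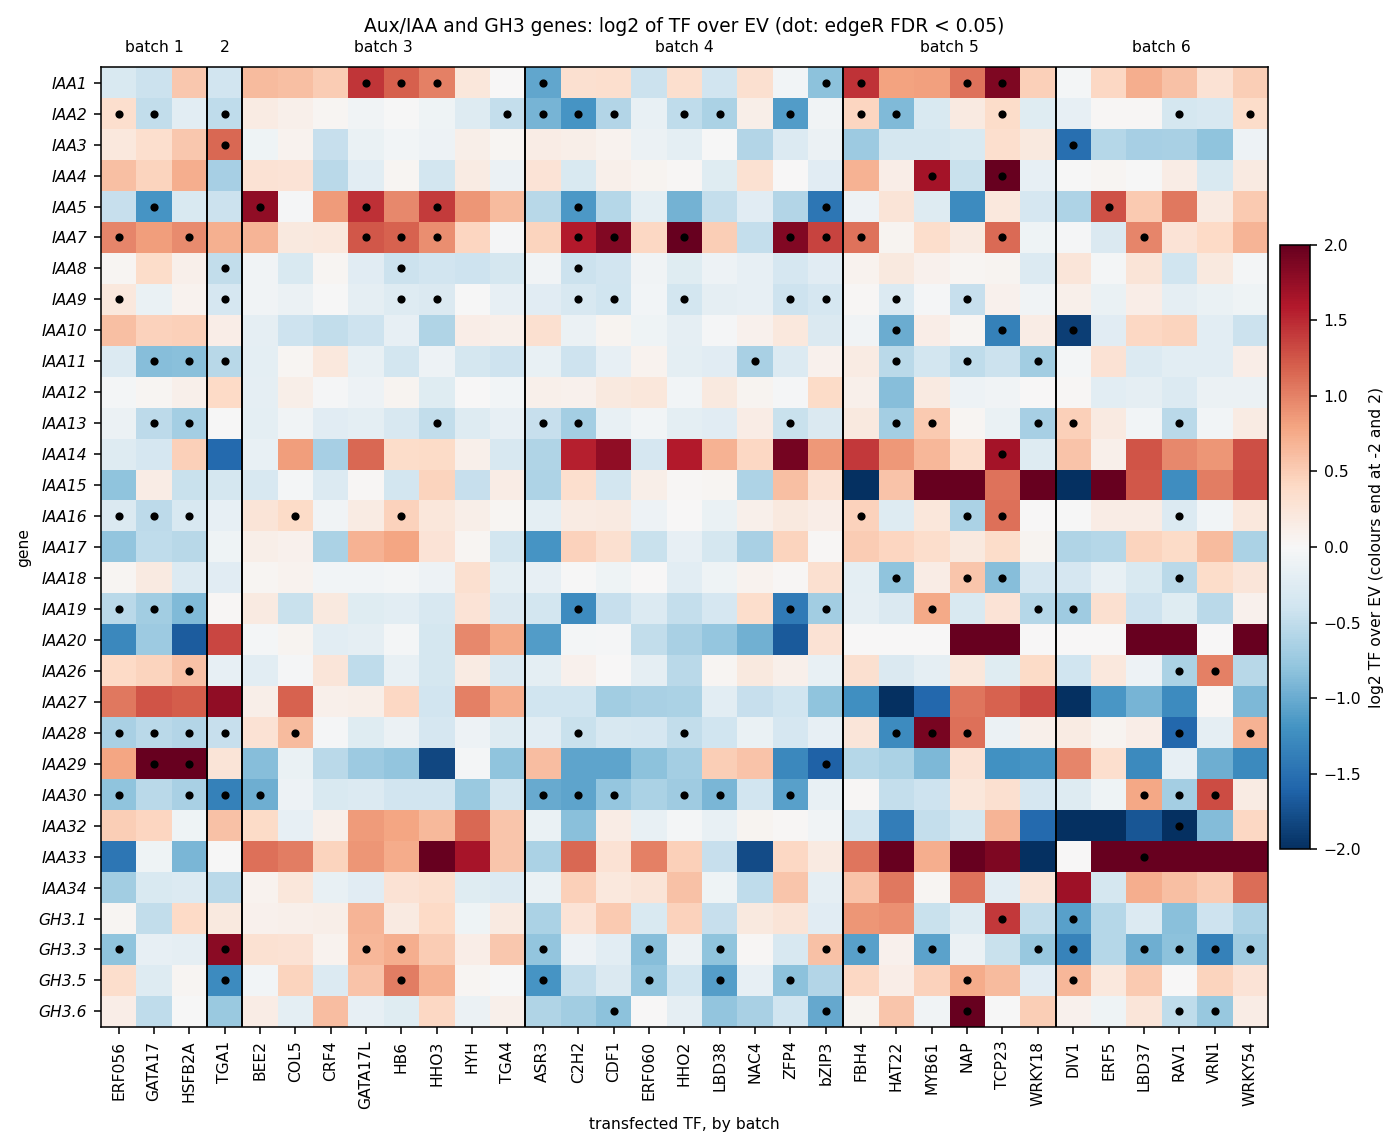
Each cell gives the log2 of TF over EV for a member (rows) and a TF (columns, by batch), with red for higher in the TF libraries, blue for lower, and a dot where edgeR's adjusted p was below 0.05. Of the 169 dots 109 are on blue cells, IAA7 has 13 dots on red cells and none on blue, and the strong colours of IAA15, IAA20, IAA27 and IAA33 carry 1 dot in all. IAA20, IAA27 and IAA33 had few counts in most libraries. IAA15 was near 0 in EV of batches 5 and 6 but averaged 11.3 CPM in EV of batch 3.

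The level of a member in EV cells differed strongly between batches, which is why each TF was read only against the EV of its own batch. GH3.3 averaged 774 ± 119 CPM in EV of batch 4 and 62.0 ± 5.64 CPM in EV of batch 6 (SD, n = 3 each). GH3.1 averaged 277 CPM in batch 4 and 8.63 CPM in batch 5, and IAA2 averaged 498 CPM in batch 4 and 50.9 CPM in batch 2. IAA7 ran the other way, with 7.27 CPM in batch 4 and 36.3 CPM in batch 6. Among members above 5 CPM in every batch, IAA12, IAA16 and IAA9 varied least, with 1.44, 1.64 and 1.69 times between their highest and lowest batches. Per kb of exon, IAA2 led in EV cells with 163 ± 118 CPM per kb, followed by IAA19 with 151 ± 57.1, GH3.3 with 124 ± 126.5, IAA9 with 88.1 ± 18.03, IAA16 with 85.3 ± 18.2 and GH3.1 with 65.5 ± 53.0 (SD over 6 batch means). No neighbours in this order differed beyond that spread. IAA28, GH3.5, IAA30 and IAA13 followed at 22.3 to 33.3 CPM per kb, and IAA20, IAA33 and IAA27 stood at 0.40 to 0.67 CPM per kb. The source of these differences between batches was not tested.

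**Figure D2:**
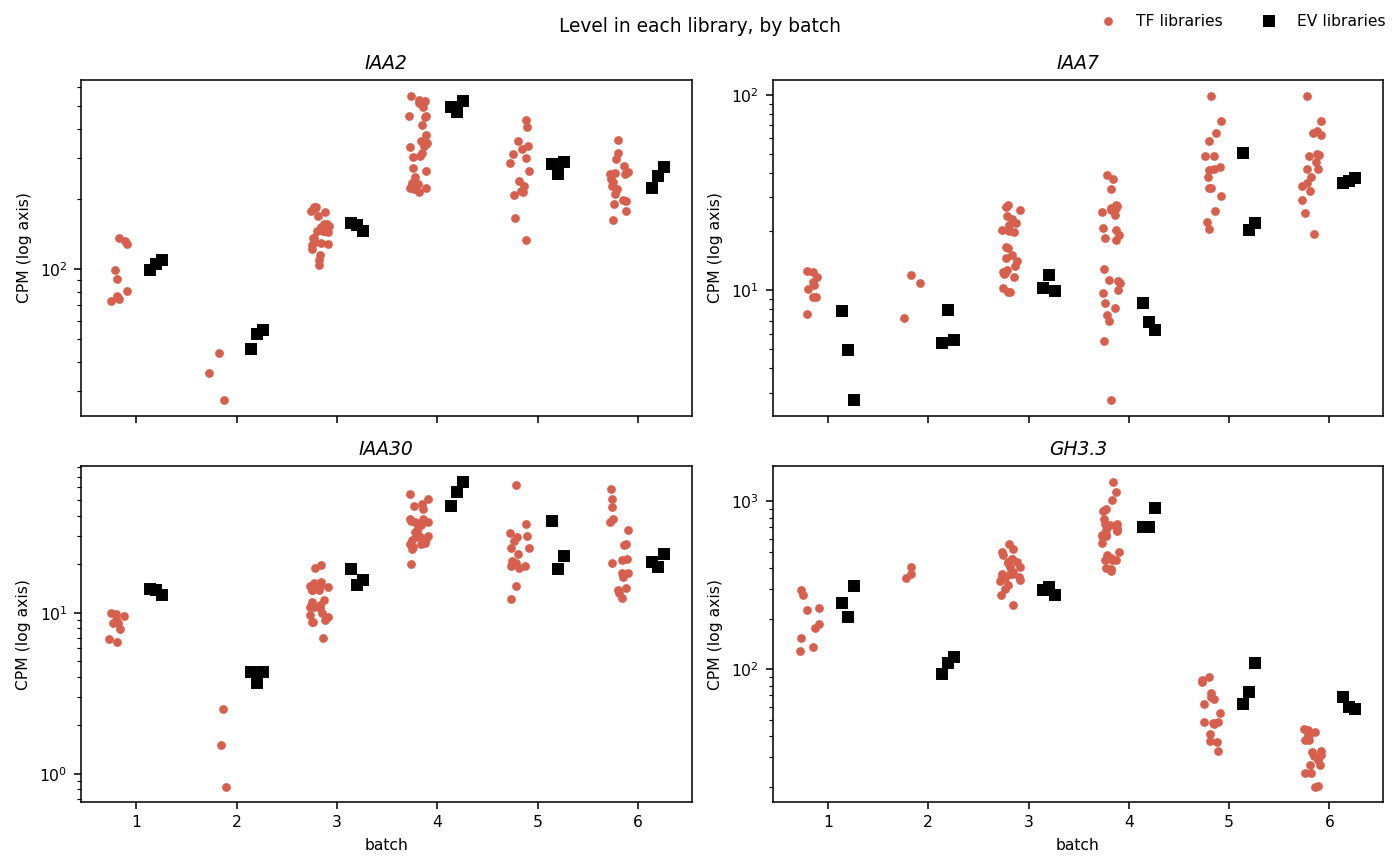
CPM on a log axis of IAA2, IAA7, IAA30 and GH3.3 in every library, with TF libraries as red circles left of the EV libraries (black squares) in each of the 6 batches. GH3.3 lies below all EV libraries in 18 of 18 TF libraries of batch 6 and above them in 21 of 24 of batch 3, and the EV level itself moves between 62.0 and 774 CPM.

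In TAIR10.1, GH3.3 (AT2G23170, chromosome 2, 9863855 to 9866562) links auxin to amino acids. It is among the fastest auxin-induced genes and was called for 16 TFs, against 15 for IAA2. With a replicate block IAA19 was called for 21 TFs and GH3.3 for 19, and without replicate 1 both were called for 17. GH3.3 was induced by 4 TFs (GATA17L, HB6, TGA1 and bZIP3, of which those in batches 3 and 4 are listed apart from EV) and repressed by 12. Without replicate 2 it was called for 9 TFs. The strongest change was with TGA1, a bZIP factor of the N response. GH3.3 had 352, 368 and 409 CPM in TGA1 libraries, against 93.7, 110 and 119 CPM in EV libraries of batch 2. Every TGA1 library exceeded every EV library, with a log2 of 1.81 (SE 0.17, edgeR adjusted p = 2.15e-14). The promoter printed for GH3.3 carries the TGACG core at -59, and whether TGA1 binds it was not measured here. The other members with TGACG in this window are IAA1, IAA8 and GH3.1. With TGA1, IAA1 and GH3.1 were not called (log2 -0.38 and 0.20), and IAA8 was repressed (log2 -0.49). IAA3, which TGA1 also induced, has no TGACG in its window. With bZIP3, another bZIP factor, GH3.3 averaged 1161 ± 144 CPM, against 774 ± 119 CPM in EV of batch 4 (log2 0.59, SE 0.16, edgeR adjusted p = 0.0082), a pair picked after its values were seen. With TGA4 and HYH, also bZIP factors, GH3.3 was not called in edgeR (for TGA4 log2 0.55, SE 0.17, edgeR adjusted p = 0.082).

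The repression of GH3.3 was called for 1 TF of batch 1, 3 of batch 4, 3 of batch 5 and 5 of batch 6. All 18 TF libraries of batch 6 (20.1 to 44.1 CPM, median 31.4) lay below the 3 EV libraries (57.8 to 68.4 CPM), and 5 of the 6 TFs passed the test, from WRKY54 at a log2 of -0.70 to VRN1 at -1.36. In batch 4, 18 of 27 TF libraries lay below all EV libraries and 3 above, and in batch 5, 9 of 16 lay below and none above. The TFs of a batch share the EV libraries, so these calls are not independent of each other, and a shift of the 3 EV libraries cannot be told apart from a shift by all TFs. Among the TFs of batch 6, the GH3.3 means still spanned 23.7 to 41.7 CPM.

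The 3 other GH3 members moved with fewer TFs. GH3.6 (DFL1, AT5G54510, chromosome 5, 22130964 to 22133688), named for its dwarf overexpression line, had 121, 136 and 125 CPM in NAP libraries, against 26.2, 33.5 and 35.2 CPM in EV libraries of batch 5. The lowest NAP library was far above the highest EV library (log2 2.01, SE 0.20, edgeR adjusted p = 7.50e-15). NAP is a NAC factor known from leaf senescence. GH3.6 was repressed by CDF1, RAV1, VRN1 and bZIP3, and it was called for 3 TFs with any replicate left out. Its CDF1 and bZIP3 libraries averaged 2.04 and 1.74 CPM and overlapped the EV libraries, which averaged 3.58 CPM. GH3.5 (WES1) was induced by DIV1, HB6 and NAP and repressed by ASR3, ERF060, LBD38, TGA1 and ZFP4. Without replicate 2 it was called for none of the 33 TFs. Of its 27 TF libraries in batch 4, 22 lay below all shared EV libraries and none above. GH3.1 was called for TCP23 (induced) and DIV1 (repressed) only. Its number of TFs was 6 without replicate 1, 1 without replicate 2, 0 without replicate 3 and 7 with each batch fitted alone. As a group the 4 GH3 members gave 9 induced and 22 repressed calls in 132 comparisons (6.82% and 16.7%, where the backgrounds were 4.59% and 4.99%), with a median log2 of -0.07.

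IAA7 (AXR2, AT3G23050, chromosome 3, 8194606 to 8197161), whose stabilised form makes roots resistant to auxin and short of root hairs, was called in 1 direction only. It was induced by 13 TFs and repressed by none, with a median log2 of 0.68 over the 33 TFs. Without replicate 2 it was called for 5 TFs, and without replicate 3 for 8. In batch 3, 20 of 24 TF libraries lay above all shared EV libraries and 2 below. In batches 3 to 6, IAA7 was induced by 11 of the 15 TFs listed apart from EV and by none of the 14 interleaved TFs, so that the TFs and the listing cannot be told apart. The 2 others, ERF056 and HSFB2A, are in batch 1, where all TFs are interleaved. With HHO2, a GARP-type repressor of the N and phosphate responses, IAA7 had 37.2, 33.1 and 39.0 CPM, against 8.63, 6.92 and 6.27 CPM in EV libraries of batch 4. The HHO2 libraries were all more than 3 times the highest EV library (log2 2.32, SE 0.28, edgeR adjusted p = 1.19e-09). With CDF1, a DOF factor that controls flowering, it had 27.04, 25.9 and 26.3 CPM against the same EV libraries (log2 1.86, SE 0.28, edgeR adjusted p = 6.50e-07). Again no library overlapped EV, and the CDF1 libraries differed from each other by little (SD 0.59 CPM).

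In batch 4, IAA7 was induced by C2H2, CDF1, HHO2, ZFP4 and bZIP3, whose 15 libraries held 18.2 to 39.0 CPM (median 25.9). The 12 libraries of ASR3, ERF060, LBD38 and NAC4 held 2.73 to 12.9 CPM (median 9.18), and the 3 EV libraries 6.27 to 8.63 CPM. So 5 TFs stood apart from EV and the other 4 did not, and these 5 are exactly the TFs of batch 4 listed apart from the EV libraries. RHD6, a TF that marks and specifies root hair cells, moved with the same TFs. It averaged 51.9 CPM with CDF1, 43.3 with HHO2, 35.7 with ZFP4, 34.05 with C2H2 and 26.9 with bZIP3, and 12.5 to 16.2 CPM with the other 4 TFs, against 10.4 CPM in EV. Across all batches RHD6 was induced by 10 TFs, and 9 of these were among the 13 TFs that induced IAA7. How many of all genes share as many TFs with IAA7 was not computed. In batches 3 to 6 RHD6 was induced by 9 of the 15 TFs listed apart and by 1 of the 14 interleaved TFs. The 3 root hair markers together (RHD6, EXP7 and COBL9) summed to 0 to 118 CPM in TF libraries (median 21.2), against 2.42 to 94.1 CPM in EV libraries (median 13.2), and gave 12 induced and 3 repressed calls in 99 comparisons. The sums pool all batches, which hold unlike numbers of TF libraries. RHD6, EXP7 and COBL9 were each repressed by 1 TF, TGA1, and EXP7 and COBL9 were each induced by 1. The part of root hair cells in the IAA7 result was not tested.

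The close relatives of IAA7 followed it only in part. IAA14 (SLR), whose stable form blocks the initiation of lateral roots, had 14.6, 12.4 and 18.9 CPM in TCP23 libraries, against 8.95, 2.79 and 2.18 CPM in EV libraries of batch 5. The TCP23 libraries all exceeded EV, but the EV libraries scattered (log2 1.67, SE 0.48, edgeR adjusted p = 0.012), and the call was lost without replicate 2 and without replicate 3. In batches 1 to 4 IAA14 averaged below 1 CPM in EV, and no TF there passed. IAA16 was induced by COL5, FBH4, HB6 and TCP23 and repressed by ERF056, GATA17, HSFB2A, NAP and RAV1. With TCP23 it averaged 305 ± 36.7 CPM, against 142 ± 5.29 CPM in EV, the call of lowest adjusted p among all members (log2 1.11, SE 0.09, edgeR adjusted p = 3.57e-17), a pair picked after its values were seen. Without replicate 2, IAA16 was called for 3 TFs rather than 9. IAA17 (AXR3) passed for no TF in edgeR, with 0 TFs at an unadjusted p under 0.05 and 0 in DESeq2, at 0.99 to 2.73 CPM in EV. Without replicate 1 it was called for 3 TFs. The 4 genes together gave 18 induced and 5 repressed calls in 132 comparisons (13.6% and 3.79%, where the backgrounds were 4.59% and 4.99%), with a median log2 of 0.22. IAA7 alone gave 13 of these induced calls, and IAA16 gave all 5 repressed calls, so the induced share is not one of the whole branch. Of the induced calls of IAA14 and IAA16, all 5 were with TFs listed apart from EV.

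Among IAA1 to IAA4, small and strongly auxin-inducible members, IAA1 and IAA2 carried most calls. IAA2 (AT3G23030, chromosome 3, 8180646 to 8182095) was repressed by 11 TFs and induced by 4 (ERF056, FBH4, TCP23 and WRKY54), and without replicate 2 it was called for 8 TFs, all repressed. With C2H2, a zinc finger TF, IAA2 had 223, 223 and 213 CPM, against 496, 471 and 527 CPM in EV libraries of batch 4. Every C2H2 library was far below every EV library (log2 -1.18, SE 0.11, edgeR adjusted p = 3.97e-15). In that batch 22 of 27 TF libraries lay below all EV libraries and 3 above, with TF means of 220 to 538 CPM, and 6 of the 9 TFs passed. These 9 TFs share the 3 EV libraries.

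IAA1 was induced by 6 TFs and repressed by ASR3 and bZIP3. It was called for 5 TFs without replicate 1, for 3 without replicate 2 and for 5 without replicate 3. In batch 3, 21 of 24 TF libraries lay above all shared EV libraries and 3 below. IAA1 had 32.4, 16.4 and 41.9 CPM in TCP23 libraries, against 10.8, 6.98 and 6.199 CPM in EV libraries of batch 5. TCP23 was above EV in every library but spread widely itself (log2 1.87, SE 0.32, edgeR adjusted p = 7.04e-06). In the 2 FBH4 libraries it had 25.9 and 16.4 CPM, against the same EV libraries (log2 1.45, SE 0.36, edgeR adjusted p = 0.0049), a call lost without replicate 1 (log2 1.32) and without replicate 3 (log2 1.47). Each omission leaves 1 FBH4 library, which is then assumed to vary like the other groups. IAA4 had 30.2, 14.6 and 26.2 CPM with TCP23 and 17.3, 17.6 and 18.5 CPM with MYB61, against 6.30, 6.98 and 3.85 CPM in EV. Neither TF overlapped EV (TCP23 log2 2.09, SE 0.32, edgeR adjusted p = 3.28e-07, and MYB61 log2 1.67, SE 0.32, edgeR adjusted p = 2.98e-05). IAA4 was called for these 2 TFs alone. IAA3 (SHY2), which limits the size of the root meristem, was called for TGA1 (induced) and DIV1 (repressed). The DIV1 libraries averaged 0.98 CPM and overlapped EV, and that call was kept in 6 of 9 alternatives.

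**Figure D3:**
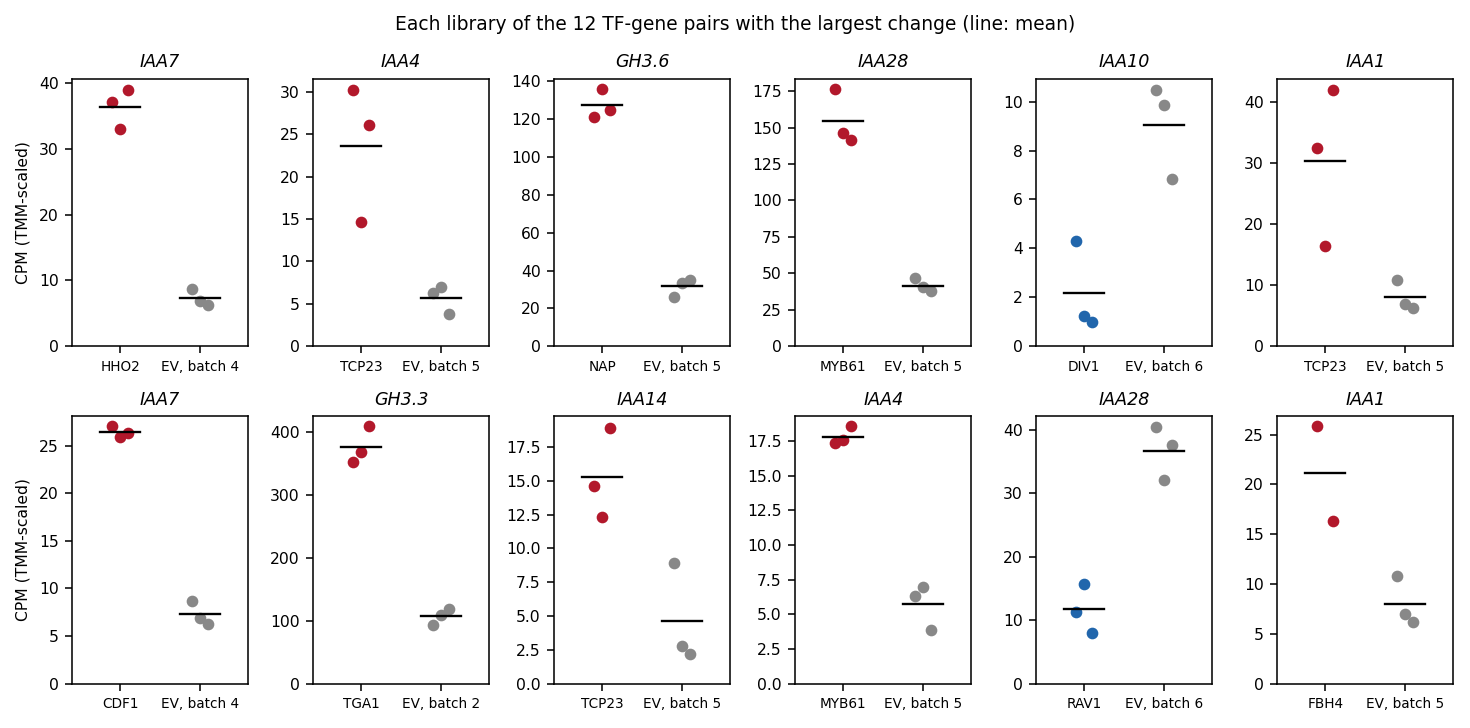
Normalised CPM of each library for the 12 TF-gene pairs with the largest change, with the TF's libraries on the left (red where induced, blue where repressed), the EV libraries of the same batch on the right in grey, and a line at each mean. In all 12 the TF and EV libraries do not overlap, which the choice of pairs required. Relative to its mean, IAA10 with DIV1 scatters widely (SD 1.84 on 2.18 CPM), and GH3.6 with NAP is a tight group near 127 CPM above EV near 31.6 CPM.

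IAA5 and IAA19 (MSG2) are known from hypocotyl growth and tropic bending. IAA19 was repressed by 8 TFs and induced by MYB61, and its number of TFs moved most with the settings: 17 without replicate 1, 4 without replicate 2, 4 without replicate 3 and 21 with a replicate block, against 9 in the fit reported. Its EV libraries of batch 4 alone ran from 141 to 250 CPM. With ZFP4, another C2H2-type factor, it averaged 72.7 ± 8.97 CPM, against 194 ± 54.7 CPM in EV (log2 -1.42, SE 0.17, edgeR adjusted p = 4.31e-10), a pair picked after its values were seen. IAA5 was induced by BEE2, ERF5, GATA17L and HHO3 and repressed by C2H2, GATA17 and bZIP3, at 1.01 to 5.68 CPM in EV. Its gene overlaps a neighbour, and the library kit does not mark strand, so reads of the 2 genes cannot be told apart where they overlap. IAA5 was called for 0 TFs without replicate 1 and without replicate 2, and for 4 without replicate 3. In batch 3, 22 of 24 TF libraries lay above all shared EV libraries and 1 below. In batch 4, 21 of 27 lay below all shared EV libraries and none above.

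IAA8, IAA9 and IAA27 form the branch with longer proteins. IAA9 (AT5G65670, chromosome 5, 26253408 to 26256544) was repressed by 10 TFs and induced by ERF056, always by little: the called changes ran from -0.46 to 0.21 on the log2 scale. With NAP it had 170, 168 and 173 CPM, against 222, 234 and 245 CPM in EV libraries of batch 5. All NAP libraries were below EV (log2 -0.46, SE 0.08, edgeR adjusted p = 2.62e-06). In batch 4, 25 of 27 TF libraries lay below all 3 shared EV libraries and none above. IAA9 was called for 7 TFs without replicate 1, for 6 without replicate 2 and for 18 by DESeq2. It also overlaps another gene. IAA8 was repressed by C2H2, HB6 and TGA1, and without replicate 1 it was called for 1 TF. IAA27 was called for 0 TFs by edgeR and by DESeq2, with 3 TFs at an unadjusted p under 0.05, and averaged at most 1.26 CPM in EV.

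IAA10 to IAA13 gave 2 induced and 19 repressed calls in 132 comparisons (1.52% and 14.4%, where the backgrounds were 4.59% and 4.99%). This branch includes IAA12 (BDL), whose stable form prevents formation of the embryonic root, and its close relative IAA13. IAA13 had 37.3, 34.9 and 32.2 CPM in C2H2 libraries, against 62.3, 51.9 and 54.0 CPM in EV libraries of batch 4. No C2H2 library reached the lowest EV library (log2 -0.69, SE 0.12, edgeR adjusted p = 3.83e-06). It was repressed by 9 TFs and induced by DIV1 and MYB61, and without replicate 2 it was called for 6 TFs. IAA11 was repressed by 7 TFs and induced by none, with 3 TFs left without replicate 1 and 4 without replicate 2. IAA10, which lacks the full degron core, had 4.30, 1.24 and 1.00 CPM in DIV1 libraries, against 10.46, 9.88 and 6.83 CPM in EV libraries of batch 6. DIV1 was below EV throughout (log2 -1.88, SE 0.32, edgeR adjusted p = 1.72e-06). DIV1 is a MYB-related factor. HAT22 and TCP23 also repressed IAA10, and without replicate 3 it had 2 induced calls and 1 repressed call. IAA12 passed for 0 TFs in edgeR, with 1 TF at an unadjusted p under 0.05 and 1 call in DESeq2. IAA10, IAA11 and IAA13 each overlap another gene.

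IAA28 (AT5G25890, chromosome 5, 9033204 to 9035140), whose stable form suppresses lateral roots and which marks the priming of lateral root founder cells, moved strongly in both directions. In MYB61 libraries it had 177, 146 and 141 CPM, against 46.7, 40.5 and 37.7 CPM in EV libraries of batch 5. The MYB61 libraries were all more than 3 times every EV library (log2 1.89, SE 0.17, edgeR adjusted p = 1.30e-16). In RAV1 libraries it had 11.2, 15.7 and 8.04 CPM, against 40.5, 32.1 and 37.5 CPM in EV libraries of batch 6. Here the TF was below EV in every library (log2 -1.58, SE 0.20, edgeR adjusted p = 2.37e-10). MYB61 is an R2R3-MYB known from lignin and carbon allocation, and RAV1 is an AP2/B3 factor whose overexpression retards lateral roots. In all IAA28 was induced by COL5, MYB61, NAP and WRKY54 and repressed by 8 TFs, and without replicate 1 it was called for 6 TFs and without replicate 2 for 7. In batch 4, 24 of 27 TF libraries lay below the 3 shared EV libraries. IAA18 was induced by NAP and repressed by HAT22, RAV1 and TCP23. IAA26 was induced by HSFB2A and VRN1 and repressed by RAV1, and without replicate 2 it was called for 0 TFs.

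IAA20 and IAA30 to IAA34 all lack the full degron core, and IAA30 (AT3G62100, chromosome 3, 22995686 to 22996809) was the only abundant gene among them. It was repressed by 11 TFs and induced by LBD37 and VRN1. With C2H2 it had 25.6, 26.9 and 28.3 CPM, against 46.0, 56.2 and 65.1 CPM in EV libraries of batch 4. The groups were apart (log2 -1.05, SE 0.21, edgeR adjusted p = 7.74e-05). In batch 4, 23 of 27 TF libraries lay below all shared EV libraries, in batch 1 all 9 did, and in batch 3 20 of 24. Without replicate 2 IAA30 was called for 2 TFs, and without replicate 3 for 8. In VRN1 libraries it averaged 51.4 ± 6.70 CPM, against 21 ± 1.99 CPM in EV of batch 6 (log2 1.31, SE 0.24, edgeR adjusted p = 0.00014), a pair picked after its values were seen. IAA32 was called for RAV1 alone, with overlapping libraries and an adjusted p of 0.04999 in edgeR, and the call was kept in 3 of 9 alternatives. IAA33 was called for LBD37 alone: it had 10, 3 and 3 counts in the 3 LBD37 libraries and 0 counts in the 3 EV libraries, which is at least 3.78-fold higher against a floor of 3 counts over the EV group. That call was lost with any replicate left out and in DESeq2. IAA20 and IAA34 were called for 0 TFs in edgeR, with 3 and 1 TFs at an unadjusted p under 0.05 and 0 and 1 calls in DESeq2. IAA31 and IAA6 were too low to test.

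IAA15 and IAA29 stand outside these branches. IAA15 was called for 0 TFs in edgeR and in DESeq2, with 1 TF at an unadjusted p under 0.05 and 2 calls without replicate 1. In EV it reached 11.3 CPM in batch 3 and was near 0 in batches 5 and 6. IAA29, known from the response to shade and heat, was induced by GATA17 and HSFB2A, at 1.43 and 1.58 CPM against 0.28 CPM in EV of batch 1, and repressed by bZIP3. It was called for 0 TFs without replicate 1 and for 1 without replicate 2.

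**Figure D4:**
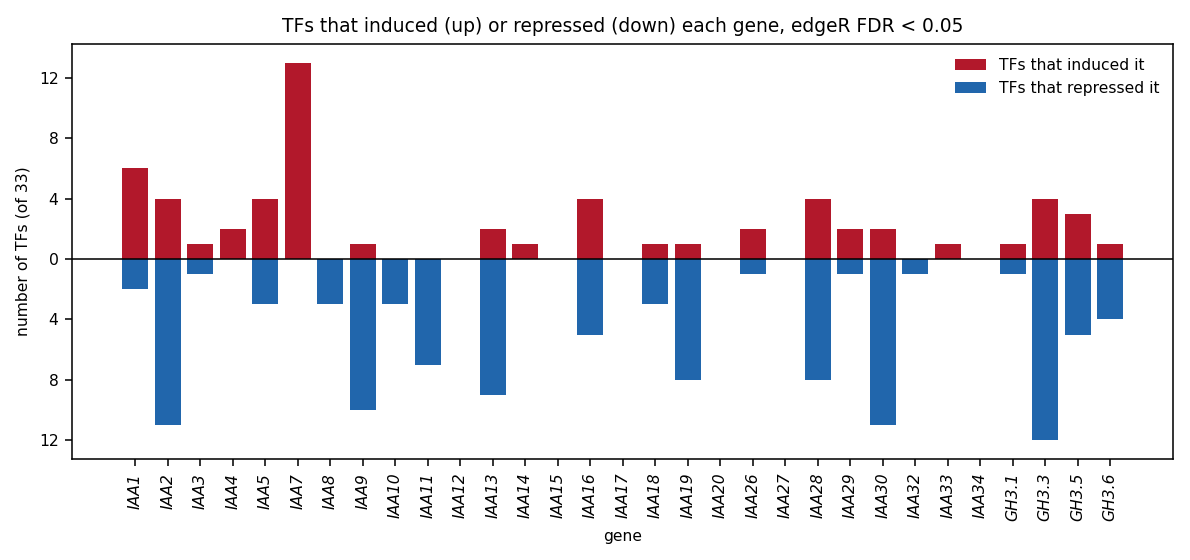
For each of the 31 tested members the bar up gives the number of TFs that induced it and the bar down the number that repressed it (edgeR, adjusted p below 0.05). GH3.3 has 4 up and 12 down, IAA2 has 4 up and 11 down, IAA30 has 2 up and 11 down, and IAA7 is the only tall bar with nothing below the line, at 13 up.

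The 33 TFs differed in how many members they moved and in which direction. Members were called at a higher share than all genes for 27 TFs. Of the 33, 18 repressed more members than they induced, 11 induced more and 4 were even. RAV1 repressed 10 of 31 members and induced none (backgrounds 12.2% repressed and 12.2% induced): IAA2, IAA13, IAA16, IAA18, IAA26, IAA28, IAA30, IAA32, GH3.3 and GH3.6. Without replicate 2 it repressed 4 and without replicate 3 it repressed 6. C2H2 repressed 8 and induced IAA7 alone (backgrounds 8.69% and 6.58%), and without replicate 1 it repressed 4. ZFP4 repressed 6 and induced IAA7 alone (backgrounds 5.31% and 3.82%), and bZIP3 repressed 6 and induced IAA7 and GH3.3 (backgrounds 6.83% and 6.12%), with 2 repressed without replicate 1 and 2 without replicate 2.

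TCP23, a class I TCP factor, had the opposite balance. It induced 7 members (IAA1, IAA2, IAA4, IAA7, IAA14, IAA16 and GH3.1) and repressed IAA10 and IAA18, where the backgrounds were 6.28% induced and 4.11% repressed. Without replicate 2 it induced 4, and without replicate 3 it induced 3. HB6, a homeodomain-leucine zipper factor of the ABA response, induced IAA1, IAA7, IAA16, GH3.3 and GH3.5 and repressed IAA8 and IAA9 (backgrounds 2.47% and 4.06%), and without replicate 2 it was called for 0 members. NAP induced 5 members and repressed IAA9, IAA11 and IAA16 (backgrounds 4.87% and 3.53%), and without replicate 2 and without replicate 3 it induced 3. MYB61 induced IAA4, IAA13, IAA19 and IAA28 and repressed GH3.3 (background 11.7% in either direction). GATA17L induced 4 members and repressed none (background 4.58% in either direction), with 2 induced without replicate 1 and 1 without replicate 2.

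HAT22 repressed 7 members and induced none (backgrounds 6.57% and 10.4%), and without replicate 2, which leaves 1 HAT22 library assumed to vary like the other groups, it repressed 4. TGA1 repressed 7 and induced IAA3 and GH3.3 (backgrounds 10.7% and 9.01%), with 4 repressed without replicate 1 and 3 without replicate 2. GATA17 repressed 7 and induced IAA29 (backgrounds 9.83% and 6.28%), with 4 repressed without replicate 2. HSFB2A repressed 6 and induced 3 (backgrounds 12.2% and 9.68%), with 5 members called without replicate 2. ERF056 repressed 5 and induced 3 (backgrounds 10.6% and 8.02%), with 1 member called without replicate 2 and 5 without replicate 3. DIV1 repressed 5 and induced 2 (backgrounds 15.4% and 9.89%), shares close to those of all genes, and without replicate 2 it was called for 2 members. ASR3 repressed 6 members and induced none, where 3.74% of all genes were called in either direction, and without replicate 2 it repressed 1. Among the other TFs, HHO2, HHO3, CDF1 and FBH4 were called for 5 members each (backgrounds 8.59%, 2.91%, 7.04% and 6.29% in either direction). LBD37, LBD38, VRN1 and WRKY18 were called for 4 (10.7%, 4.62%, 2.55% and 5.92%), and WRKY54 for 3 (10.7%). BEE2, COL5 and ERF060 were called for 2 (0.891%, 3.97% and 4.72%), and ERF5, NAC4 and TGA4 for 1 (7.34%, 5.13% and 1.39%). Without replicate 2, HHO2, FBH4 and WRKY18 were called for 2 members, LBD37, LBD38, VRN1, WRKY54 and ERF060 for 1, and HHO3, BEE2, COL5, ERF5, NAC4 and TGA4 for 0. CRF4 and HYH were called for 0 members in edgeR (backgrounds 0.708% and 6.83%), with 2 and 7 members at an unadjusted p under 0.05 and 0 and 3 calls in DESeq2.

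**Figure D5:**
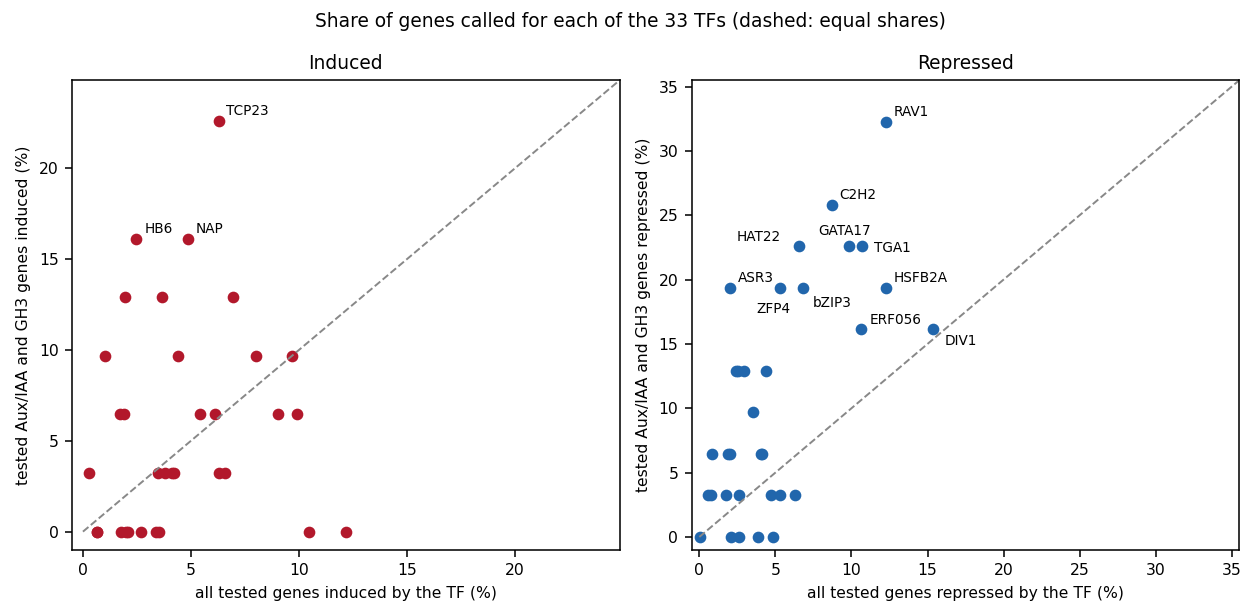
Each point is a TF, with the percentage of all tested genes it induced (left panel) or repressed (right panel) on the x axis and the percentage of the 31 tested members on the y axis. The dashed line marks equal shares, and TFs with at least 5 members are named. RAV1 repressed 32.3% of members and 12.2% of all genes, and TCP23 induced 22.6% of members and 6.28% of all genes.

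The balance also differed by batch, whose TFs share EV libraries. Batch 4 gave 6 induced and 41 repressed calls for 9 TFs (backgrounds 3.86% induced and 4.05% repressed), which were 2.15% and 14.7% of its member comparisons. Batch 3 gave 15 induced and 6 repressed calls for 8 TFs (backgrounds 1.37% and 2.11%), or 6.05% and 2.42%. Without replicate 2, batch 4 gave 5 and 19 and batch 3 gave 1 and 1. Batch 1 gave 7 and 18 (backgrounds 7.99% and 10.9%), batch 5 gave 20 and 18 (backgrounds 5.96% and 3.99%), and batch 6 gave 10 and 19 (backgrounds 6.18% and 7.32%). Without replicate 2 these became 1 and 9, 12 and 12, and 1 and 8. TGA1, alone in batch 2, gave 2 and 7. A difference between the TFs and a difference between the EV libraries of these batches cannot be told apart.

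Among the 33 TFs are 4 pairs of close relatives, and the difference of their responses was tested in the same fit. Each pair lies in 2 batches, so that TF and batch cannot be told apart. In addition LBD37 and GATA17L are listed apart from EV, and LBD38 and GATA17 interleaved with it. TGA1 and TGA4 differed in 1 of 31 members (background 2.02% of all genes). GH3.3 had a log2 of 1.81 with TGA1 and 0.55 with TGA4, a difference of 1.26 (SE 0.23, edgeR adjusted p = 0.00032), and without replicate 2 the adjusted p was 0.065. IAA2 had nearly the same response to both, -0.51 and -0.48, with a 95% interval of the difference of -0.36 to 0.30. HHO2 and HHO3 differed in 1 member (background 0.35%): IAA5 had a log2 of -0.95 with HHO2 and 1.40 with HHO3, a difference of -2.35 (SE 0.57, edgeR adjusted p = 0.028), and each replicate left out in turn ended that call.

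LBD37 and LBD38, repressors of N-responsive genes, differed in 4 members (background 7.6%). IAA30 had a log2 of 0.77 with LBD37 and -0.91 with LBD38, a difference of 1.68 (SE 0.32, edgeR adjusted p = 0.00011) that stayed past the threshold in all 8 alternatives. GH3.5 had 0.52 with LBD37 and -1.10 with LBD38 (difference 1.62, SE 0.34, edgeR adjusted p = 0.00054). IAA2 and GH3.6 also differed, by 0.66 and 1.03. GH3.3 fell with both, by 0.97 and 0.81 on the log2 scale, and the difference had a 95% interval of -0.66 to 0.33. Without replicate 1 and without replicate 2, 2 members differed.

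GATA17 and GATA17L differed in 6 members (background 4.26%). IAA1 had a log2 of -0.42 with GATA17 and 1.43 with GATA17L, a difference of -1.86 (SE 0.42, edgeR adjusted p = 0.0023) past the threshold in all 8 alternatives. IAA5 differed by -2.63, IAA16 by -0.70, GH3.1 by -1.18 and GH3.3 by -0.82, all lower with GATA17. IAA29 differed by 3.171 and was higher with GATA17, at about 1 CPM. Without replicate 1 the pair differed in 2 members and without replicate 2 in 1.

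The genes that act before and after the Aux/IAA proteins were counted the same way. Of the 22 ARFs 15 were tested, with 31 induced and 40 repressed calls in 495 comparisons (6.26% and 8.08%, where the backgrounds over all genes were 4.59% and 4.99%). ARF19, an activator that drives lateral root formation together with ARF7, was repressed by 21 TFs and induced by 6. It averaged 422 CPM with HAT22, at a log2 of 2.22 over EV (SE 0.14, edgeR adjusted p = 9.69e-27). ARF16, which acts in the root cap, was induced by 8 TFs and repressed by none. ARF7 was repressed by 3 TFs. The TIR1/AFB receptors gave 6 induced and 20 repressed calls in 198 comparisons, an induced share below the background and a repressed share above it, of which AFB4 alone had 14 repressed. AFB4 ran from 11.9 to 1392 CPM between the EV means of the batches. TPL and its relatives gave 14 induced and 7 repressed calls in 165 comparisons (8.49% and 4.24%). Auxin synthesis genes (TAA1, TAR2 and the YUCCA genes) gave 2 and 11 in 297 (0.673% and 3.7%, both below the backgrounds), of which YUC5 was repressed by 7 TFs.

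The 4 other GH3 genes gave 21 induced and 9 repressed calls in 132 comparisons (15.9% and 6.82%, where the backgrounds were 4.59% and 4.99%). GH3.2 was induced by 10 TFs and repressed by 4, with its largest rise with NAP (log2 1.16, SE 0.13, edgeR adjusted p = 5.07e-12). GH3.17 had a log2 of 1.81 with TGA1 (SE 0.26, edgeR adjusted p = 4.29e-08). The LBD genes downstream of ARF7 and ARF19 in lateral roots gave 2 induced and 33 repressed calls in 132 comparisons (1.52% and 25%), with a median log2 of -0.55. LBD16, which is needed to begin lateral roots, made up 21 of these and was induced by none. It averaged 6.80 CPM with C2H2, at a log2 of -1.90 against EV (SE 0.18, edgeR adjusted p = 1.86e-15). These genes were singled out after their values were seen.

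In the study's list of genes that respond to CHX stood 5 members: IAA1, IAA29, IAA30, GH3.1 and GH3.3. They were called in 42 of 165 comparisons (25.5%), and the 26 other tested members in 127 of 858 (14.8%). By direction, 9.09% were induced and 16.4% repressed for the listed members, and 5.2% and 9.6% for the others. The backgrounds over all genes were 4.59% and 4.99%. The study removed the genes of this list from its TF targets, whereas they were kept in the tests here. With the 5 left out, 45 calls were induced and 82 repressed. TF and EV cells both received CHX, so its part in these differences was not tested.

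Members lie in neighbouring pairs on 3 chromosomes. IAA2 and IAA7 are 12511 bases apart on chromosome 3 with 1 gene between them, on opposite strands. IAA2 was repressed and IAA7 induced by C2H2, CDF1, HHO2 and ZFP4, and both were induced by ERF056, FBH4 and TCP23. IAA1 and IAA14 are 10733 bases apart on chromosome 4, and both rose with TCP23, the only call of IAA14. IAA17 and IAA3 are 6389 bases apart on chromosome 1, and IAA17 was called for no TF.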

How the data were processed

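Counts of reads per gene were deposited by the authors, 1 library per file, without normalization. Per the methods and the submitters' processing notes, reads were aligned to TAIR10 with TopHat2 (version 2) and counted with GenomicFeatures and GenomicAlignments. How reads mapping to several genes were counted is not given in the sources used here. The 22883 genes that reached 10 counts in 3 or more libraries were fitted with edgeR 4.0.16 and R 4.3.3: TMM normalization, 39 coefficients (each TF and the EV of each batch), 76 residual degrees of freedom, 1 spread for all 115 libraries. Each TF was tested against the EV of its own batch by the quasi-likelihood F-test, with Benjamini-Hochberg adjustment over all genes at 0.05. CPM are counts scaled to the TMM-adjusted library size. The procedure was tested on simulated data.

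Values of every library are given for the 12 called pairs with the largest log2 change (at least 5 CPM, no overlap, at most 2 pairs a gene and 3 a TF) and, for each gene called for at least 10 TFs, the pair of lowest adjusted p. A gene or TF named outside this rule was chosen after its values were seen. The members and lists were chosen with earlier results of these data known. Alternatives were DESeq2 1.42.0, its size factors in edgeR, no filter, a replicate block, each batch fitted alone, a normalization computed without the TF genes, omission of each replicate number, and members of the CHX list left out. Leaving batches 5 and 6 out of the fit, and counting without the TFs listed apart from EV, were added after seeing the data. Sequences are from the RefSeq TAIR10.1 assembly and annotation. The authors' own comparisons were not used.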

Additional observations from a re-analysis of the deposited data

Results flagged for a closer look

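The number of members whose response differed between paralogous TFs is given for each pair because the difference itself was tested (edgeR, adjusted p below 0.05): 1 member for TGA1 and TGA4, 4 for LBD37 and LBD38, 1 for HHO2 and HHO3, and 6 for GATA17 and GATA17L. IAA30 (LBD37 and LBD38) and IAA1 (GATA17 and GATA17L) passed in all 8 alternatives run for these differences. GH3.3 (TGA1 and TGA4), GH3.5 (LBD37 and LBD38) and IAA16 (GATA17 and GATA17L) passed in 7, with adjusted p of 0.065, 0.053 and 0.14 without replicate 2. The 7 others passed in 4 to 6, where DESeq2 gave no adjusted p for IAA29 (GATA17 and GATA17L). Both TFs of a pair were assayed in different batches, so TF and batch cannot be told apart.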

How the results depend on the processing

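The 169 calls became 199 with DESeq2, 169 with its size factors in edgeR, 150 without the filter on low counts (31543 genes tested), 196 with each batch fitted alone and 168 with a normalization computed without the TF genes. Leaving out a replicate number of every group gave 74 to 149 calls, 22 to 54 induced and 52 to 95 repressed, and the lowest values came without replicate 2. Members that differed between paralogous TFs numbered 12, and 3 to 10 with a replicate left out. No call changed direction in any of these settings. All 9 kept 60 of the 169 calls and 14 of the 16 pairs whose libraries are given. FBH4 with IAA1 was lost without replicates 1 and 3, and TCP23 with IAA14 without replicates 2 and 3. With batches 5 and 6 left out of the fit, batches 1 to 4 gave 119 calls in place of 102. With the TFs listed apart from EV left out, also chosen after seeing the data, the 51 induced and 84 repressed calls of batches 3 to 6 became 9 and 41, over 14 of 29 TFs.

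With the replicate number as a block, 201 calls were made, 71 induced and 130 repressed, and 18 members differed between paralogs. Correlations of the deviations of same-numbered TF and EV libraries were -0.05 to 0.16 (97 libraries, median 0.01), and 7 passed the 0.1 required of every pair, so the numbers are not taken as pairs. As a hint from the data, 47 of 97 TF libraries correlated best with their own number, and IAA19 in batch 4 was lowest in replicate 1 in EV and in all 9 TFs. Its calls number 21 with the block.

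Members under about 5 CPM rest on few counts in batches 5 and 6, where 1 CPM stood for as few as 1.84 reads, and changes of IAA15, IAA20, IAA27, IAA29 and IAA33 were not detectable there unless large. Of the 33 members, 9 overlap another gene, and the kit does not mark strand.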
